A study of Arabidopsis thaliana with 12 samples.

Results

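The genotype by nitrogen interaction in Arabidopsis thaliana roots is the amount by which the change of the hni9 mutant at high nitrogen exceeds its change at low nitrogen, (hni9 − WT at high nitrogen) − (hni9 − WT at low nitrogen). It was taken from all 12 arrays of the series, 3 biological replicates in each of 4 groups: hni9 at high nitrogen, the wild type (WT) at high nitrogen, hni9 at low nitrogen and WT at low nitrogen. Plants at high nitrogen were kept at steady state on 10 mM NH4NO3, and those at low nitrogen on 0.3 mM KNO3, so the amount of nitrogen and its form cannot be told apart. The hni9 plants carry a mutation in HNI9/IWS1, a factor of transcript elongation. The kind of mutation and the age of the plants are not given in the sources used here, and the hni9 titles read hni9-1, hni9-2 and hni9 for replicates 1, 2 and 3, so whether they mark alleles is unknown. HNI9 itself was not analysed here, because no probe set carried its name, and the labels were therefore not checked against it. Of 22810 probe sets, 22746 were tested after 64 control probe sets were left out.

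As background, IWS1 travels with RNA polymerase II and acts on elongation and on histone marks of transcribed genes. HNI9 was found in a screen for plants that fail to repress a root nitrate transporter gene when nitrogen is plentiful. A gene for which the mutation acts equally at both supplies has an interaction of 0. A positive value marks a gene whose hni9 level is relatively higher at high nitrogen than at low nitrogen, and a negative value the opposite. The same number is also the nitrogen change (high minus low) of hni9 minus that of WT. In whole roots, fewer cells of a type and less RNA per cell cannot be told apart.

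Array medians lay between 199 and 221 intensity units, and replicates had a median SD of 0.20 to 0.23 (log2). PYK10, an abundant root glucosidase, read 13530 to 25627 on the 12 arrays, and it was the one member measured of the 10 listed root markers. The 3 measured of 19 listed genes of green tissue (RCA, LHCB4.1 and PRK) summed to 313 to 914 in hni9 and 886 to 1233 in WT at high nitrogen, and to 317 to 1873 in hni9 and 876 to 1053 in WT at low nitrogen. None of these 3 and none of 69 plastid-encoded genes had an interaction past the threshold. For GAPDH, the 3′ control signal over the 5′ one, a measure of RNA integrity, was 1.03 to 1.25 in hni9 and 1.31 to 1.35 in WT at high nitrogen, and 0.976 to 1.27 in hni9 and 0.921 to 1.19 in WT at low nitrogen. WT at high nitrogen thus lay apart from the other 9 arrays in this ratio, and its part in the results that single out that group was not tested. The replicate 3 arrays also stood apart. Deviations from the group means correlated at 0.0989 to 0.15 among them and at −0.119 to −0.0335 in all 24 pairs with a replicate 1 or 2 array of another group, where values below 0 are favoured because deviations within a group sum to 0. All 4 groups hold 1 such array.

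The interaction passed the threshold for 160 probe sets, 0.703% of those tested (adjusted p under 0.05, limma, Benjamini-Hochberg over all probe sets). Of these, 59 were positive (0.259%) and 101 negative (0.444%), and 118 had a size of at least 1 on the log2 scale. The annotation gave 1 gene to 65 of the 160, 25 positive and 40 negative, and the other 95 are counted here without a name. Among these 95 was the smallest adjusted p of the 160 (limma adjusted p = 7.5e-06, interaction 2.2). The largest positive interaction, 3.7 (limma adjusted p = 0.000777), was also that of a probe set without a name. Both passed in every fit that leaves out 1 array, so the named genes are not the top of the whole set. The size of the set depended on the arrays and on the variance model. It was 21 without the intensity trend and 1 with replicates 1 and 2 alone. With replicate 3 against the other replicates as a block, a setting chosen after seeing the data, it was 193, 159 of them among the 160. Leaving out 1 array gave 247 without replicate 2 of hni9 at high nitrogen, and 77, 81 and 91 without replicates 1, 2 and 3 of WT at high nitrogen. At low nitrogen it gave 88 without replicate 1 and 254 without replicate 2 of hni9, and 76, 67 and 81 without replicates 1, 2 and 3 of WT. Of the 160, 55 passed in all 12 fits that leave out 1 array, 27 positive and 28 negative. All 160 kept their sign from the 4 arrays of replicate 1, of replicate 2 and of replicate 3 taken alone, a description only, since those arrays also chose them.

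The change of hni9 was the larger at high nitrogen for 117 of the 160, which is 73.1%, and for 52.4% of the 21 that passed without the intensity trend. This held for 86 of the 101 negative interactions and for 31 of the 59 positive ones. The share over all probe sets was not computed. By its own test hni9 differed from WT for 1744 of all probe sets at high nitrogen and for 469 at low nitrogen. The 73.1% is therefore not read as particular to the interaction. Among the negative set, 87 were lower and 0 higher in hni9 at high nitrogen by their own test, against 4.33% lower and 3.34% higher of all probe sets. At low nitrogen 10 of the 101 were lower and 14 higher, against 1.33% and 0.73% of all. Among the positive set, 35 were higher and 2 lower in hni9 at high nitrogen, and 29 were lower and 0 higher at low nitrogen. These counts use contrasts that make up the interaction and describe its form. The estimated hni9 changes had opposite signs at the 2 supplies for 111 of the 160, and for 9 both changes passed the threshold with opposite signs. A choice by the difference of the 2 changes favours opposite signs. The share over all probe sets was not computed, so nothing is read from the 111.

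**Figure D1:**
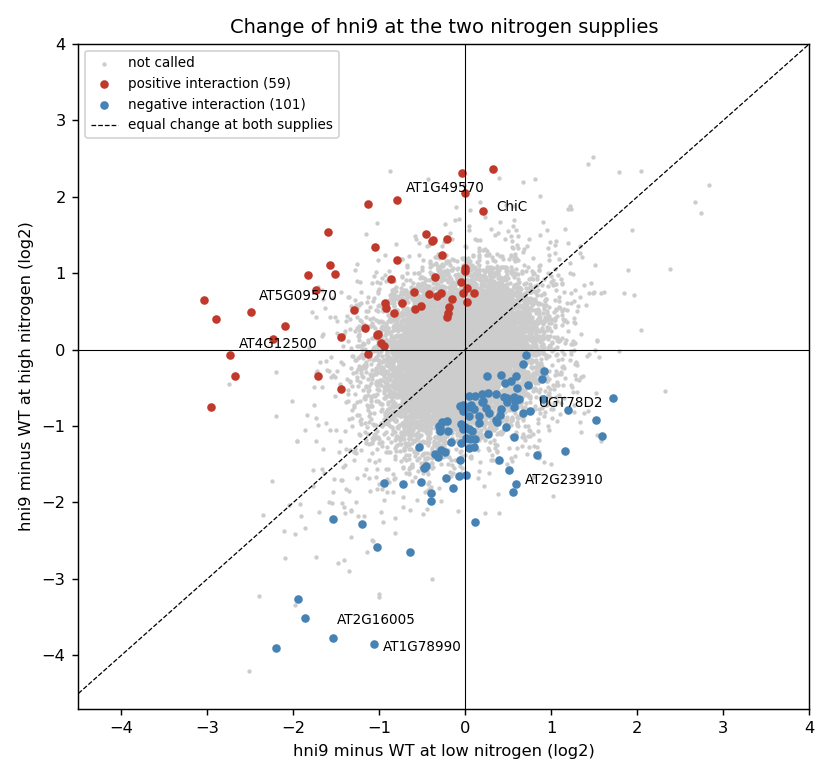
Change of hni9 against WT at high nitrogen (vertical axis, log2) and at low nitrogen (horizontal axis, log2) of each probe set tested, with grey points for those with no interaction past the threshold. The 59 positive interactions (red) lie above the dashed line of equal change and the 101 negative ones (blue) below it, mostly with hni9 lower at high nitrogen.

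The same interactions can be read as nitrogen changes, whose difference the sign of the interaction fixes. In the positive set the level in hni9 was higher at high than at low nitrogen for 20 of 59 and lower for 9, beside 2.12% and 2.98% of all probe sets. In WT it was higher for 3 and lower for 43 of these 59, beside 2.9% and 2.84% of all. In the negative set hni9 was higher at high nitrogen for 6 of 101 and lower for 47, while WT was higher for 58 and lower for 2. A nitrogen change passed in hni9 alone for 52 of the 160, in WT alone for 76, in both for 30 and in neither for 2. Of the 30, 10 went in opposite directions. The shares of these classes over all probe sets were not computed, so nothing is read from the split.

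A group was said to stand out when its mean log2 value lay beyond the other 3 means by at least the range of those 3. Such a group was found for 111 of the 160, beside 51.7% of all probe sets, and for 106 its 3 arrays all lay beyond the other 9, beside 11.0% of all. The interaction itself favours both, so nothing is read from the difference. In the negative set hni9 at high nitrogen stood out as low for 30 (6.41% of all probe sets) and WT at high nitrogen as high for another 30 (7.84% of all), with 37 showing no single group. In the positive set hni9 at high nitrogen stood out as high for 8 (9.14% of all), WT at high nitrogen as low for 15 (7.04%), hni9 at low nitrogen as low for 7 (6.1%) and WT at low nitrogen as high for 17 (4.83%). The remaining single groups of the negative set were hni9 at low nitrogen as high (3.7% of all) and WT at low nitrogen as low (6.61%), with 2 each. The sign of the interaction fixes which of these forms a set can hold, so the counts describe it.

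**Figure D2:**
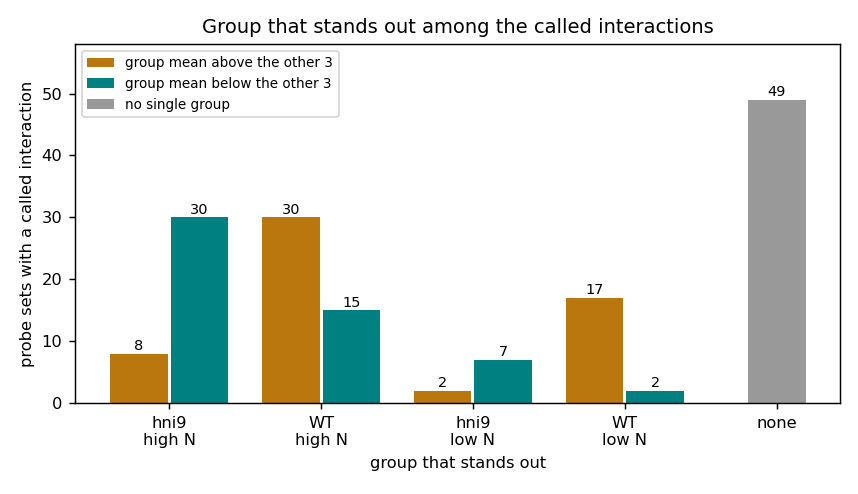
Number of probe sets with an interaction past the threshold (vertical axis) by the group that stands out, as high (brown) or as low (green), and in grey those with no single group. The tallest single-group bars are hni9 at high nitrogen as low and WT at high nitrogen as high, 30 each.

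**Figure D3:**
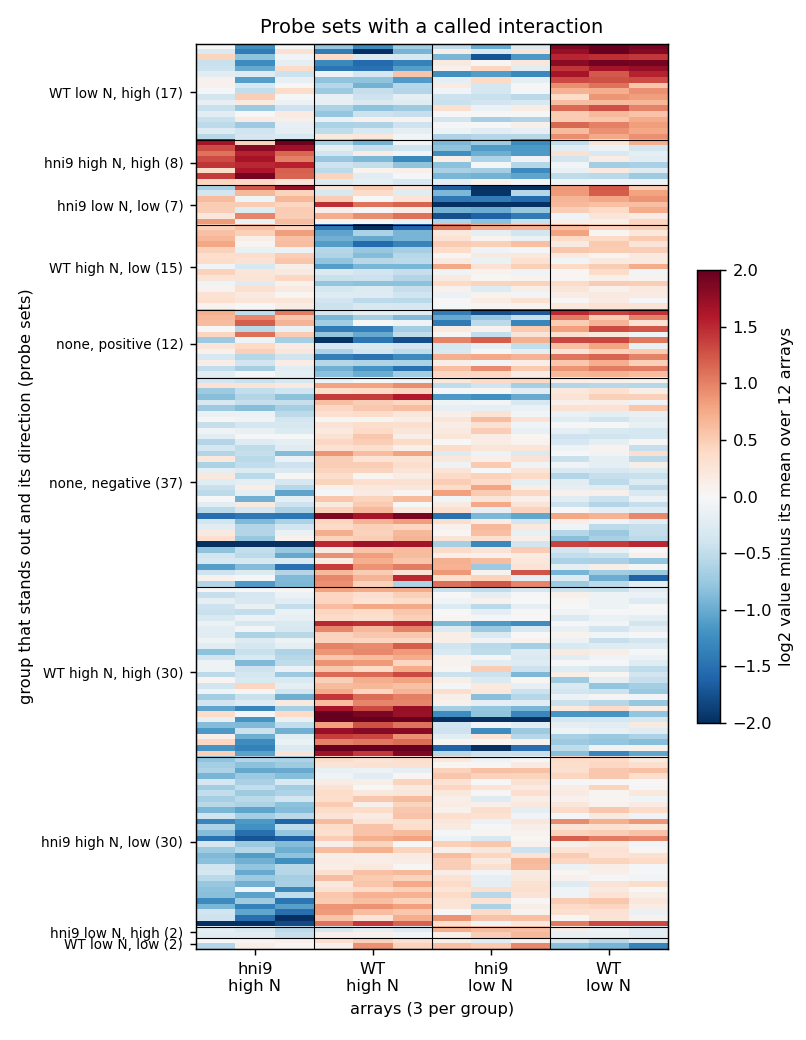
Log2 value of the 160 probe sets (rows) on the 12 arrays (columns, 3 per group), each minus its mean over the arrays, with rows sorted by the group that stands out and colours cut at 2 in either direction. The 3 arrays of the group that stands out share one colour in each block, for example red in WT at low nitrogen in the top block of 17.

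Genes known to rise when mitochondria are impaired had the highest median interaction of the 37 gene lists with at least 4 measured members. In plants such a signal passes from the mitochondrion to the nucleus, where it raises genes for alternative respiration, chaperones and transporters. Of 14 listed genes 8 were measured and 5 passed, all positive, beside 0.259% of all probe sets, and the median interaction of the 8 was 2.26, beside 0.024 over all probe sets. The list was written with earlier results of these data known and its count is not independent evidence. The count lay between 4 and 6 without 1 array, and was 1 (AT2G41730) without the intensity trend and 0 with replicates 1 and 2 alone.

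AT5G09570 encodes a small twin-cysteine protein of mitochondria. It read 629, 257 and 618 in hni9 and 362, 250 and 381 in WT at high nitrogen, and 441, 308 and 511 in hni9 and 2318, 2501 and 2378 in WT at low nitrogen. Only WT at low nitrogen was high, and its arrays did not overlap the other 9. The interaction was 2.99 ± 0.39 (SE, n = 3 arrays per group, limma adjusted p = 0.00389), made of a change of hni9 of 0.50 at high nitrogen (adjusted p = 0.339) and −2.50 at low nitrogen (adjusted p = 0.000231).

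AT2G41730, of unknown function and measured by a probe set that can bind other transcripts, had the same form. It read 742, 416 and 891 in hni9 and 404, 335 and 387 in WT at high nitrogen, and 1153, 1029 and 1188 in hni9 and 3576, 3899 and 3881 in WT at low nitrogen. Here hni9 was higher than WT at high nitrogen by 0.77 (limma adjusted p = 0.0255) and lower at low nitrogen by −1.74 (adjusted p = 0.000253), with an interaction of 2.51 ± 0.28 (adjusted p = 0.00109). The level at high nitrogen was below that at low nitrogen by −0.77 in hni9 and by −3.28 in WT on the log2 scale (limma adjusted p = 0.0338 and 4.4e-07).

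AT2G21640, a marker of oxidative stress that encodes a mitochondrial protein, read 468, 209 and 716 in hni9 and 208, 133 and 294 in WT at high nitrogen. At low nitrogen it read 632, 464 and 693 in hni9 and 1951, 2377 and 2096 in WT. The highest level was again that of WT at low nitrogen (interaction 2.82 ± 0.48, limma adjusted p = 0.0137), and the call was lost without replicate 2 of that group (adjusted p = 0.0563). AT2G04050, a multidrug efflux (MATE) carrier, read 91.1 to 262 in hni9 and 60.4 to 84.9 in WT at high nitrogen, and 168 to 274 in hni9 and 566 to 706 in WT at low nitrogen. Its interaction was 2.51 ± 0.42 (limma adjusted p = 0.0124), and of the 33 measured MATE genes it alone passed, beside 0.703% of all probe sets. AT2G04070, another MATE gene a few genes away, had an interaction of 0.44 (limma adjusted p = 0.702).

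AT5G51440, a small heat shock chaperone of mitochondria, had a smaller interaction of 1.03 ± 0.14 (limma adjusted p = 0.00491). It read 832 to 935 in hni9 and 477 to 587 in WT at high nitrogen, and 1087 to 1295 in hni9 and 1493 to 1581 in WT at low nitrogen. Both genotypes were lower at high nitrogen, hni9 by −0.48 and WT by −1.51, and no array of the 4 groups overlapped another group. It was the one of 9 measured small heat shock genes to pass, beside 0.703% of all probe sets. NDB4, an alternative NADH dehydrogenase, had a value of 2.02 that did not pass (adjusted p = 0.355, limma); its arrays ran from 5.03 to 143 in hni9 and from 4.86 to 33.2 in WT at high nitrogen, and from 117 to 189 in hni9 and from 259 to 401 in WT at low nitrogen. AT5G64400, a paralogue of AT5G09570, read 9026 to 12620 on all 12 arrays, with an interaction of −0.11 (limma adjusted p = 0.878).

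WT at low nitrogen also stood out for genes of other kinds. AT4G12500, a lipid transfer-like protein of a family tied to defence priming, read 1184, 489 and 831 in hni9 and 1152, 708 and 692 in WT at high nitrogen, and 451, 250 and 383 in hni9 and 2520, 2448 and 2335 in WT at low nitrogen. The genotypes overlapped at high nitrogen and were far apart at low nitrogen, with an interaction of 2.66 ± 0.39 (limma adjusted p = 0.00566). Its nitrogen change went in opposite directions, 1.13 in hni9 and −1.54 in WT (limma adjusted p = 0.0275 and 0.0035). Its relative AT4G12490 had a value of 1.85 that did not pass (limma adjusted p = 0.0724), and the other 6 measured members did not pass either. Only 8 of the 18 listed loci were measured, and AT4G12500 alone passed, beside 0.703% of all probe sets. Probe sets without a single annotated gene were not assigned to the family, so members among them are missed.

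AT1G33055, a short transcript known to rise under low oxygen, read 129, 126 and 110 in hni9 and 141, 117 and 236 in WT at high nitrogen, and 56.4, 62.2 and 52.9 in hni9 and 516, 380 and 474 in WT at low nitrogen. The interaction was 2.34 ± 0.35 (limma adjusted p = 0.00669), with WT at low nitrogen above all other arrays. It was the one of 9 measured hypoxia-induced genes to pass, beside 0.703% of all probe sets. The median of the 9 was 0.39.

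Class III peroxidases, secreted haem enzymes that cross-link or loosen the cell wall and handle hydrogen peroxide, gave calls in both directions. Of 55 measured genes 3 were positive and 2 negative, 5 in all beside 0.703% of all probe sets, with a median interaction of 0.12 beside 0.024 over all probe sets. The count lay between 4 and 10 without 1 array, and was 3 without the intensity trend. By their own tests 3 of the 55 were higher and 13 lower in hni9 at high nitrogen (3.34% and 4.33% of all probe sets), while at low supply 2 were higher and 10 lower (0.73% and 1.33% of all).

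AT1G49570 had the smallest adjusted p of all named genes, though not of all 160 probe sets. It read 1210, 1740 and 1597 in hni9 and 418, 348 and 360 in WT at high nitrogen, and 269, 211 and 207 in hni9 and 408, 446 and 367 in WT at low nitrogen. The mutant was above WT at the high supply and below it at the low supply, with no overlap at either. The interaction was 2.75 ± 0.21 (limma adjusted p = 3.41e-05), made of 1.96 at high nitrogen (adjusted p = 3e-06) and −0.79 at low nitrogen (adjusted p = 0.013). The nitrogen change was 2.64 in hni9 and −0.11 in WT (limma adjusted p = 2.81e-07 and 0.792). It stayed past the threshold without each of the 12 arrays.

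AT5G64110 followed the same form at a lower brightness. It read 412, 566 and 431 in hni9 and 140, 207 and 178 in WT at high nitrogen, and 69.4, 86.2 and 75.4 in hni9 and 233, 147 and 159 in WT at low nitrogen (interaction 2.40 ± 0.32, limma adjusted p = 0.00396). Its neighbour AT5G64100 was bright in all groups, at 5552, 7114 and 5772 in hni9 and 5574, 5096 and 5244 in WT at high nitrogen, and 4562, 4793 and 5026 in hni9 and 9582, 9690 and 9861 in WT at low nitrogen. There it was WT at low nitrogen that stood out, with an interaction of 1.22 ± 0.14 (limma adjusted p = 0.00159). The next peroxidase gene in the row, AT5G64120, was higher at high nitrogen in hni9 by 1.35 and in WT by 1.23 (limma adjusted p = 0.00147 and 0.00274), with an interaction of 0.12 (adjusted p = 0.934). The order of these neighbours is that of the RefSeq annotation TAIR10.1.

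AT2G41480 was the negative peroxidase of the larger size. It read 196, 195 and 260 in hni9 and 671, 925 and 810 in WT at high nitrogen, and 278, 357 and 316 in hni9 and 323, 317 and 423 in WT at low nitrogen. WT at high nitrogen alone was high, with an interaction of −1.66 ± 0.24 (limma adjusted p = 0.00553). AT4G33420, named after its values were seen because it completes the 5, read 781 to 887 in hni9 and 1902 to 2184 in WT at high nitrogen, and 1251 to 1295 in hni9 and 1739 to 2106 in WT at low nitrogen. Its interaction was −0.73 ± 0.13 (limma adjusted p = 0.0217), and it was lost in 5 of the 12 fits without 1 array (adjusted p up to 0.075, without replicate 2 of WT at low nitrogen).

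WT at high nitrogen stood out as low for genes that hni9 kept near their low-nitrogen level. ChiC, a class V chitinase, read 4557, 2761 and 4063 in hni9 and 1210, 895 and 1045 in WT at high nitrogen, and 3777, 3709 and 4017 in hni9 and 2990, 3814 and 3188 in WT at low nitrogen. The interaction was 1.61 ± 0.23 (limma adjusted p = 0.00491), with a nitrogen change of −0.05 in hni9 and −1.65 in WT (adjusted p = 0.943 and 1.94e-05). AT5G43450, a 2-oxoglutarate-dependent oxygenase, read 463, 510 and 447 in hni9 and 111, 42.7 and 97.7 in WT at high nitrogen, and 712, 569 and 543 in hni9 and 508, 459 and 470 in WT at low nitrogen. Its interaction was 2.04 ± 0.33 (limma adjusted p = 0.00947), and its neighbour AT5G43440 had one of 0.22 (adjusted p = 0.907).

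The other 2 named genes of this form were smaller or less stable. AT2G43610, also a chitinase, had an interaction of 0.74 ± 0.15 (limma adjusted p = 0.0437) and AT1G74010, a strictosidine synthase-like protein, one of 1.16 ± 0.23 (adjusted p = 0.0366). Each was lost in 9 of the 12 fits without 1 array and with the arrays centred on their medians (limma adjusted p = 0.0779 for AT2G43610 and 0.0558 for AT1G74010). Chitinases counted 2 positive and 0 negative of 15 measured, beside 0.259% and 0.444% of all probe sets. Their median was 0.30, beside 0.024 over all probe sets.

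AT5G43590, a patatin-like protein of lipid metabolism, stood out as high in hni9 at high nitrogen. It read 337, 438 and 272 there and 68.9, 60.6 and 42.8 in WT at high nitrogen, and 139, 77 and 121 in hni9 and 95.7, 142 and 106 in WT at low nitrogen. The genotypes overlapped at low nitrogen, and the interaction was 2.35 ± 0.40 (limma adjusted p = 0.0135; 0.0518 without replicate 2 of WT at low nitrogen). AT5G40590, a protein with a cysteine-rich C1 domain, and AT5G01740 were lower at high nitrogen in both genotypes, by −1.46 and −1.16 in hni9 and by −2.97 and −2.45 in WT. Their interactions were 1.51 ± 0.26 and 1.29 ± 0.18 (limma adjusted p = 0.0161 and 0.00481). AT5G40590 lost its call without replicate 1 or replicate 2 of WT at low nitrogen (limma adjusted p = 0.0557 and 0.0676).

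**Figure D4:**
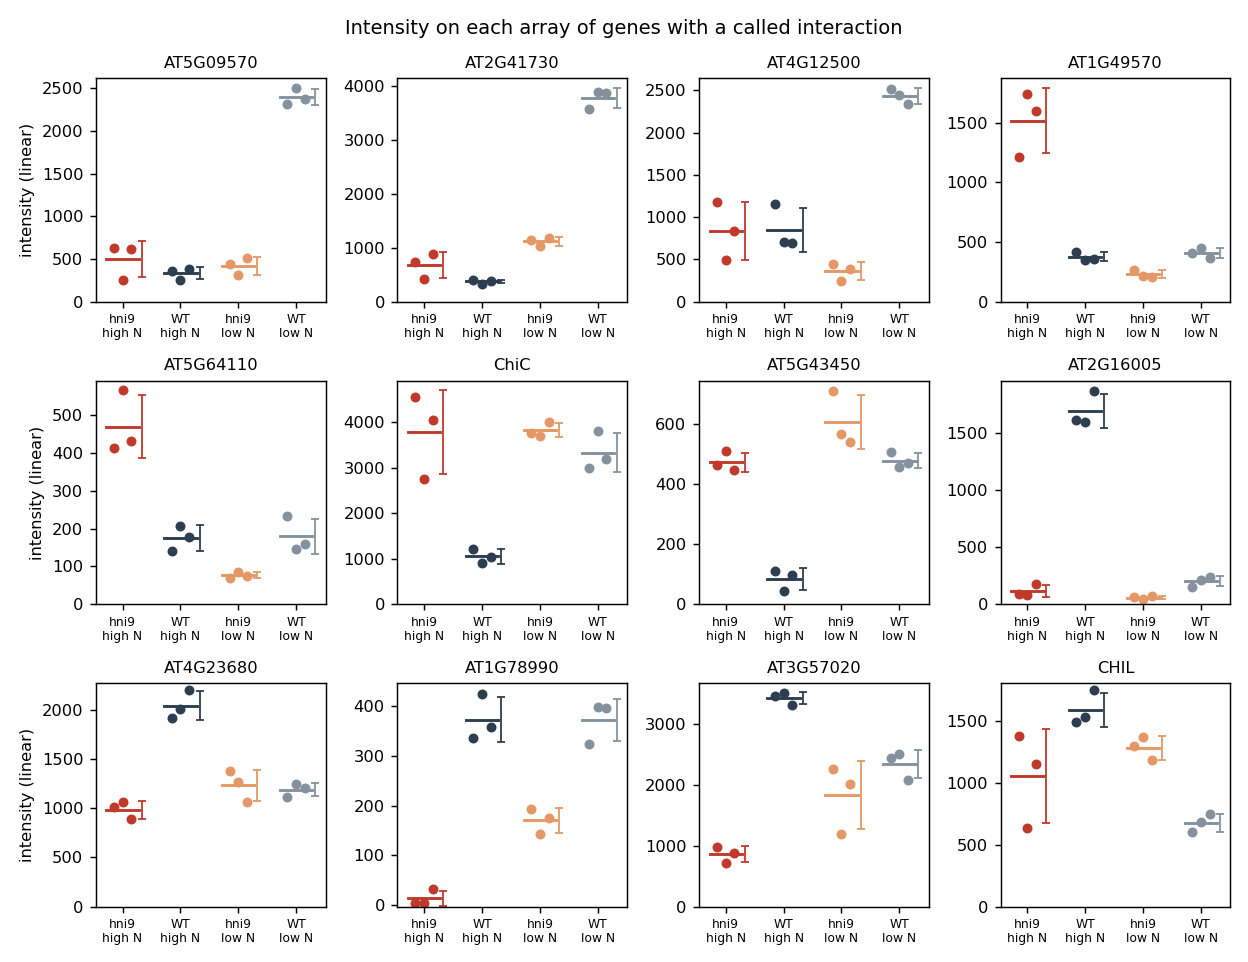
Linear intensity on each array (points), with the group mean (horizontal line) and SD (error bar, n = 3), of 12 genes with an interaction past the threshold, hni9 and WT at high nitrogen and then at low nitrogen. AT5G09570, AT2G41730 and AT4G12500 are high in WT at low nitrogen, AT1G49570 and AT5G64110 in hni9 at high nitrogen, ChiC and AT5G43450 low in WT at high nitrogen, AT2G16005 and AT4G23680 high in WT at high nitrogen, and AT1G78990 and AT3G57020 low in hni9 at high nitrogen.

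Among the negative interactions, major latex protein-like genes gave the most calls of any list. These are small proteins with a ligand-binding pocket of the Bet v 1 fold, and most of their ligands in Arabidopsis are unknown. Of 15 measured genes 4 passed, all negative, beside 0.444% of all probe sets, and the median of the 15 was −0.80. The count lay between 2 and 5 without 1 array and was 0 without the intensity trend. By their own tests 5 of the 15 were lower and 0 higher in hni9 at high nitrogen (4.33% and 3.34% of all probe sets), while the low-nitrogen test had 3 lower and 0 higher (1.33% and 0.73% of all).

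AT4G23680 read 1007, 1058 and 885 in hni9 and 1915, 2006 and 2201 in WT at high nitrogen, and 1372, 1265 and 1062 in hni9 and 1115, 1248 and 1200 in WT at low nitrogen. WT at high nitrogen was above all other arrays and the genotypes overlapped at low nitrogen (interaction −1.09 ± 0.15, limma adjusted p = 0.00481). Its neighbour AT4G23670 was far brighter and lower in hni9 at both supplies. It read 4554, 3940 and 4052 in hni9 and 14183, 13673 and 14104 in WT at high nitrogen, and 2648, 2258 and 2087 in hni9 and 4892, 4786 and 3832 in WT at low nitrogen. The hni9 change was −1.74 at high and −0.94 at low nitrogen, an interaction of −0.80 ± 0.16 (limma adjusted p = 0.0353), which was lost in 9 of the 12 fits without 1 array and with the arrays centred (adjusted p = 0.0721).

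AT4G14060 had the largest interaction of the 4, −1.55 ± 0.25 (limma adjusted p = 0.0113). It read 144, 116 and 192 in hni9 and 1022, 808 and 1091 in WT at high nitrogen, and 190, 177 and 159 in hni9 and 363, 415 and 348 in WT at low nitrogen. Its level in hni9 overlapped between the supplies, with a nitrogen change of −0.22 (limma adjusted p = 0.622), against 1.33 in WT (adjusted p = 0.000377). For AT3G26450 it was hni9 at high nitrogen that was low, at 880 to 1178, against 2377 to 2862 in WT there, with 1290 to 2037 in hni9 and 1803 to 2131 in WT at low nitrogen (interaction −1.11 ± 0.22, limma adjusted p = 0.0313, lost in 8 of the 12 fits without 1 array). The 11 other members ran from −1.48 to 1.91, and none of them passed.

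Flavonoid synthesis, which makes flavonols and anthocyanins from phenylpropanoids and is known to respond to nitrogen supply, was seen through 4 measured genes of 15 listed. CHIL, a chalcone isomerase-like protein that raises flux into the pathway, read 1379, 635 and 1158 in hni9 and 1495, 1531 and 1750 in WT at high nitrogen, and 1301, 1371 and 1184 in hni9 and 604, 685 and 750 in WT at low nitrogen. UGT78D2, a flavonoid 3-O-glucosyltransferase, read 1266, 740 and 1017 in hni9 and 1867, 1543 and 1772 in WT at high nitrogen, and 1144, 1708 and 1008 in hni9 and 750, 659 and 803 in WT at low nitrogen. In both, hni9 lay below WT at high nitrogen and above it at low nitrogen, and no single group stood out. The hni9 change passed at high nitrogen for UGT78D2 (−0.80, limma adjusted p = 0.0208; 0.0667 for CHIL) and at low nitrogen for CHIL (0.91, adjusted p = 0.0324; 0.0597 for UGT78D2).

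Their interactions were both −1.56, with SE 0.29 and limma adjusted p = 0.0217 for CHIL, and SE 0.27 and adjusted p = 0.0169 for UGT78D2. The nitrogen change in hni9 was −0.35 for CHIL and −0.34 for UGT78D2 (limma adjusted p = 0.445 and 0.419), against 1.21 for each in WT (adjusted p = 0.00224 and 0.00153). UGT78D2 lost its call without replicate 1 of WT at high nitrogen (limma adjusted p = 0.0567) or replicate 2 of WT at low nitrogen (0.0676), and CHIL in 6 of the 12 fits (adjusted p up to 0.0704, without replicate 1 of WT at low nitrogen). UGT78D1, a flavonol rhamnosyltransferase, had a value of −2.38 (limma adjusted p = 0.0789) and DFR, of the anthocyanin branch, one of −0.58 (adjusted p = 0.826). The median of the 4 was −1.56, and 2 of them passed, both negative, beside 0.444% of all probe sets. The count lay between 0 and 3 without 1 array. CHIL and UGT78D2 both lost their calls without the intensity trend (limma adjusted p = 0.142 and 0.121).

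The largest negative interaction of a named gene was that of AT1G78990, a BAHD acyltransferase, an enzyme class that acylates specialised metabolites. It read 4.23, 4.25 and 31.5 in hni9 and 337, 425 and 358 in WT at high nitrogen, and 193, 144 and 175 in hni9 and 324, 399 and 396 in WT at low nitrogen. The transcript was near the bottom of the array in hni9 at high nitrogen alone. The interaction was −2.79 ± 0.43 (limma adjusted p = 0.00693), and with 64 in place of 16 added before the logarithm it was −1.61, since so dim a level depends on that value. The nitrogen change was −2.79 in hni9 (limma adjusted p = 8.01e-05) and 0.00 in WT (adjusted p = 1). It was the one of 38 measured BAHD genes to pass, beside 0.703% of all probe sets.

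AT3G57020, a strictosidine synthase-like protein, read 983, 719 and 872 in hni9 and 3452, 3499 and 3304 in WT at high nitrogen, and 2261, 1194 and 2012 in hni9 and 2437, 2497 and 2068 in WT at low nitrogen (interaction −1.58 ± 0.26, limma adjusted p = 0.0113). Of the 6 measured of 17 listed genes of its family 1 was negative and 1, AT1G74010, positive. The shares over all probe sets were 0.444% and 0.259%. UGT71C1, a glycosyltransferase of phenylpropanoids, read 489 to 564 in hni9 and 805 to 974 in WT at high nitrogen, and 1288 to 1396 in hni9 and 1209 to 1382 in WT at low nitrogen (interaction −0.79 ± 0.14, limma adjusted p = 0.0161). It missed the threshold without replicate 1 of hni9 (adjusted p = 0.0503) or replicates 1 or 3 of WT (0.0539 and 0.0528) at low nitrogen. With UGT78D2 it made 2 negative and 0 positive of 43 measured genes with a UDP-glycosyltransferase name, beside 0.444% and 0.259% of all probe sets. The median of the 43 was 0.19. Members known by locus alone are missed, such as AT2G31790, a glucosyltransferase with a negative interaction described below.

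CYP71B37, a cytochrome P450, had an interaction of −1.02 ± 0.19 (limma adjusted p = 0.0271), at 214 to 245 in hni9 and 598 to 678 in WT at high nitrogen, and 403 to 589 in hni9 and 596 to 678 in WT at low nitrogen. It was the one of 24 measured genes with a P450 name to pass, beside 0.703% of all probe sets. P450 genes known by locus alone are not among the 24. The call of CYP71B37 was lost in 7 of the 12 fits without 1 array. AT2G34810, a berberine bridge enzyme-like oxidase, was dim, at 7.92 to 60.8 in hni9 and 106 to 154 in WT at high nitrogen, and 136 to 174 in hni9 and 89 to 107 in WT at low nitrogen. Its interaction of −2.42 ± 0.52 (limma adjusted p = 0.0476) was lost in 11 of the 12 fits, and was −1.51 with 64 added. AT5G42250, an alcohol dehydrogenase-like enzyme, had one of −1.39 ± 0.30 (limma adjusted p = 0.0476), lost in 10 of the 12 fits and under quantile normalization (adjusted p = 0.07).

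WT at high nitrogen stood out as high for AT2G16005, which has a lipid-recognition domain of the MD-2 type. It read 89.9, 78.5 and 180 in hni9 and 1618, 1596 and 1868 in WT at high nitrogen, and 62, 44.4 and 67.1 in hni9 and 152, 209 and 238 in WT at low nitrogen. The gene was lower in hni9 at both supplies, by −3.77 at high and −1.54 at low nitrogen, and the interaction was −2.23 ± 0.37 (limma adjusted p = 0.012). Its nitrogen change was 0.78 in hni9 and 3.01 in WT (limma adjusted p = 0.122 and 6.52e-06).

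AT2G23910, related to cinnamoyl-CoA reductases, read 436, 140 and 379 in hni9 and 1041, 854 and 1172 in WT at high nitrogen, and 206, 226 and 222 in hni9 and 165, 115 and 142 in WT at low nitrogen. Its interaction was −2.35 ± 0.42 (limma adjusted p = 0.0202), and the call was lost without replicate 1 or 3 of WT at high nitrogen (0.0624 and 0.0667) or replicate 2 or 3 of WT at low nitrogen (0.0689 and 0.0549). AT1G19960 read 197 to 272 in hni9 and 701 to 937 in WT at high nitrogen, and 72.3 to 109 in hni9 and 80.5 to 110 in WT at low nitrogen (interaction −1.58 ± 0.30, limma adjusted p = 0.028, lost in 5 of the 12 fits). It is a gene that was higher at high nitrogen in both genotypes, by 1.37 in hni9 and 2.95 in WT. PMEPCRF, a pectin methylesterase, read 432 to 555 in hni9 and 790 to 899 in WT at high nitrogen, and 534 to 625 in hni9 and 584 to 603 in WT at low nitrogen (interaction −0.78 ± 0.16, limma adjusted p = 0.0421). It was lost in 10 of the 12 fits without 1 array (adjusted p up to 0.119, without replicate 3 of WT at high nitrogen), with the arrays centred (0.0719) and under quantile normalization (0.0625).

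For 5 more negative genes of the naming rule the 2 estimated hni9 changes had opposite signs and no single group stood out. AT1G64590, a short-chain dehydrogenase, read 492, 620 and 513 in hni9 and 996, 1309 and 1360 in WT at high nitrogen, and 1150, 1063 and 1256 in hni9 and 666, 790 and 877 in WT at low nitrogen. Both hni9 changes passed, −1.14 at high and 0.57 at low nitrogen (limma adjusted p = 0.000169 and 0.049), with an interaction of −1.71 ± 0.20 (adjusted p = 0.00146). MSRB6, a methionine sulfoxide reductase that repairs oxidised proteins, had an interaction of −1.83 ± 0.34 (limma adjusted p = 0.0217), and AT2G44940, a transcription factor of the ERF family, one of −1.49 ± 0.25 (adjusted p = 0.0124). AT1G31050, of the bHLH family, had −1.28 ± 0.26 and AT5G08050 −1.37 ± 0.29 (limma adjusted p = 0.0349 and 0.0473). Of these, MSRB6, AT1G31050 and AT5G08050 lost their calls in 6, 8 and 10 of the 12 fits without 1 array.

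**Figure D5:**
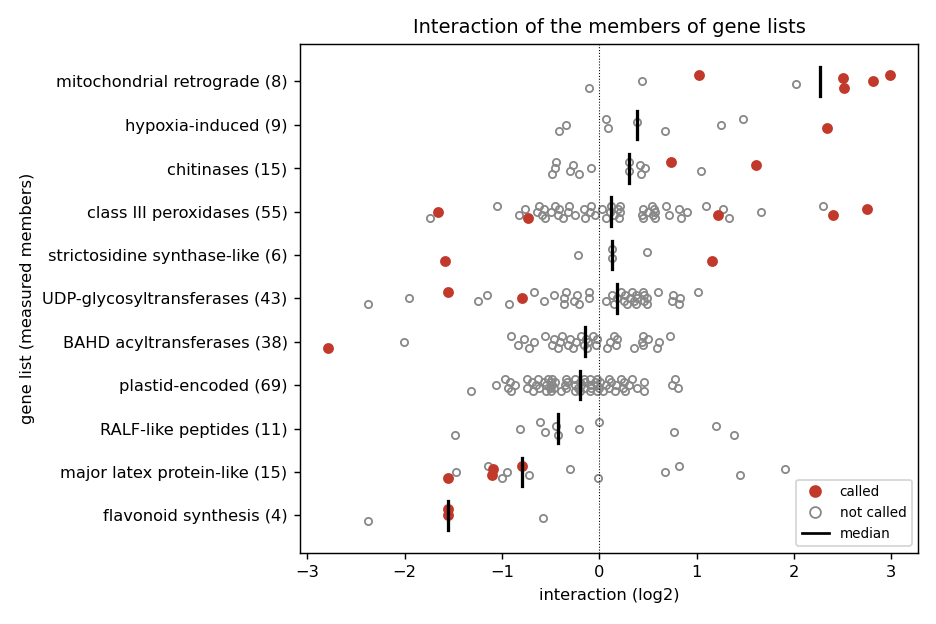
Interaction (horizontal axis, log2) of each measured member of 11 gene lists, with the number measured in brackets, red where it passed the threshold, and the list's median as a black bar. The mitochondrial retrograde genes have a median of 2.26 and the flavonoid genes one of −1.56, while most members of the larger families lie on both sides of 0.

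Of 37 lists with at least 4 measured members 20 had none past the threshold. Several are functions in which a nitrogen response might be looked for. Nitrate and ammonium uptake, reduction and assimilation were not assessed, since only 1 of 34 listed genes was measured. The 5 measured of 19 listed regulators of the nitrate response ran from −0.79 to 0.52 with a median of −0.11. The 12 measured nitrate and peptide transporters of the NPF family ran from −0.86 to 0.84 with a median of −0.15. The 17 CC-type glutaredoxins had a median of 0.31, the 17 SWEET sugar exporters 0.13, the 19 expansins −0.06 and the 22 pectate lyases 0.34. A value short of the threshold does not show that these genes act alike at both supplies. Lists without a set of loci matched annotated names and miss members known by locus alone, so these counts hold for the listed genes only. AT1G31050 of the bHLH family, for example, passed but is outside the bHLH list.

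Of the lists with none past the threshold, those of RALF and auxin genes had medians farther from 0. The 11 RALF-like signalling peptides ran from −1.49 to 1.38 with a median of −0.42. By their own test hni9 was lower for 4 at high nitrogen and for 0 at low nitrogen (4.33% and 1.33% of all probe sets). RALFL32, for example, had an hni9 change of −0.86 at high nitrogen (limma adjusted p = 0.000262) and −0.24 at low nitrogen (adjusted p = 0.343), but an interaction of −0.61 (adjusted p = 0.103), so the difference between the supplies was not established. The 6 early auxin response genes ran from −1.30 to 1.77, with 4 above 0 and a median of 0.59. Among them GH3.3, which conjugates auxin to amino acids, read 1746, 505 and 1803 in hni9 and 410, 305 and 259 in WT at high nitrogen, and 202, 104 and 157 in hni9 and 148, 150 and 132 in WT at low nitrogen. Its interaction of 1.77 did not pass (limma adjusted p = 0.188), with replicate 2 of hni9 at high nitrogen far below the other 2 arrays of its group.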

How the data were processed

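Per the labels' protocols, total RNA of roots was extracted with Trizol, labelled with biotin and hybridised to Affymetrix arrays. The deposited values are linear probe set intensities, which the authors had brought to the same trimmed mean on each array, as read from the values, and had not quantile normalized. The sources used here do not name the summarisation software. Each deposited intensity was transformed here as log2(value + 16), which compresses changes of dim genes, since 16 exceeds 10.8% to 15.0% of the values on an array. No array was dropped.

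Using limma 3.58.1 (R 4.3.3), a linear model with a mean for each of the 4 groups was fitted over the 12 arrays, with moderated variances that follow an intensity trend. The Benjamini-Hochberg adjustment covered 22746 probe sets at a false discovery rate of 0.05. The number of arrays, 3 per group, limits the precision. Standard errors are limma's.

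In the platform annotation 13513 tested probe sets have 1 gene, 503 have several and 8730 are unlisted. A locus of TAIR10.1 was found for 13436, and that annotation was used for names and neighbours only. A gene with several probe sets is represented by its brightest. The rule named the 15 largest interactions in each direction past the threshold, with 1 annotated gene and a highest group mean over the median probe set (7.81 on the log2 scale), and up to 4 members past the threshold of each gene list. The rule, the gene lists and the tests were chosen with earlier results of these data known. Of the lists, 60 were written before the annotation was seen and 16 were added once its coverage was known.

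The alternatives were 1 or 64 added, centring, quantile normalization, the dimmest 40% left out, no trend, a replicate block, replicates 1 and 2 alone, and each array left out. Replicate 3 as a block was added after seeing the data. Promoter sequences were not used here.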

Additional observations from a re-analysis of the deposited data

Results flagged for a closer look

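The change of hni9 against WT differed between high and low nitrogen for 160 probe sets by the interaction term in limma (adjusted p under 0.05), which is why each gene below is listed. No group of 3 arrays is large enough for a test of single arrays.

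Positive interactions (log2) were 2.99 for AT5G09570, 2.82 for AT2G21640, 2.51 for AT2G41730, 2.51 for AT2G04050 and 1.03 for AT5G51440 among the mitochondrial retrograde genes. The peroxidases AT1G49570, AT5G64110 and AT5G64100 had 2.75, 2.40 and 1.22, and the chitinases ChiC and AT2G43610 had 1.61 and 0.74. The others were 2.66 for AT4G12500, 2.35 for AT5G43590, 2.34 for AT1G33055, 2.04 for AT5G43450, 1.51 for AT5G40590, 1.29 for AT5G01740 and 1.16 for AT1G74010.

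Negative interactions were −2.79 for AT1G78990, −2.42 for AT2G34810, −2.35 for AT2G23910, −2.23 for AT2G16005, −1.83 for MSRB6 and −1.71 for AT1G64590. The major latex protein-like genes AT4G14060, AT3G26450, AT4G23680 and AT4G23670 had −1.55, −1.11, −1.09 and −0.80. The flavonoid genes CHIL and UGT78D2 had −1.56 each, and the peroxidases AT2G41480 and AT4G33420 had −1.66 and −0.73. The others were −1.58 for AT3G57020, −1.58 for AT1G19960, −1.49 for AT2G44940, −1.39 for AT5G42250, −1.37 for AT5G08050, −1.28 for AT1G31050, −1.02 for CYP71B37, −0.79 for UGT71C1 and −0.78 for PMEPCRF.

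A further 10 genes past the threshold were chosen after their values were seen, for functions not yet described. GAT1_2.1, of the glutamine amidotransferase family, was low in hni9 at low nitrogen alone. It read 60.1, 269 and 383 in hni9 and 129, 156 and 132 in WT at high nitrogen, and 22.1, 11.7 and 7.69 in hni9 and 202, 265 and 153 in WT at low nitrogen (3.30 ± 0.67, limma adjusted p = 0.0366). It was lost in 10 of 12 fits without 1 array and with 64 added (2.16, adjusted p = 0.077). AT5G64870, a flotillin-like membrane protein, was dim, at 45.9 to 158 in hni9 and 7.3 to 27.4 in WT at high nitrogen, and 2.48 to 11.1 in hni9 and 15.8 to 58.6 in WT at low nitrogen. Its value of 3.04 ± 0.61 (limma adjusted p = 0.0365) was 1.56 with 64 added and 4.96 with 1 added, and was lost in 8 of 12 fits.

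AT4G16260, a beta-1,3-glucanase-like hydrolase, read 2671 to 2982 in hni9 and 6632 to 7956 in WT at high nitrogen, and 2135 to 2598 in hni9 and 2778 to 2895 in WT at low nitrogen, with an interaction of −1.03 ± 0.14 (limma adjusted p = 0.00396). AT1G31710, a copper amine oxidase that breaks down polyamines, had the same form, at 370 to 486 in hni9 and 1218 to 1314 in WT at high nitrogen, and 467 to 555 in hni9 and 661 to 756 in WT at low nitrogen (−1.07 ± 0.16, limma adjusted p = 0.00669). In both, WT at high nitrogen was above all other arrays. AT2G31790, a glucosyltransferase of glucosinolate synthesis, was low in hni9 at high nitrogen, at 442 to 549 there and 1054 to 1088 in WT, against 1179 to 1493 in hni9 and 1177 to 1386 in WT at low nitrogen (−1.14 ± 0.16, limma adjusted p = 0.00467). AT3G61260, a remorin of the plasma membrane, followed it at 701 to 818 in hni9 and 1337 to 1495 in WT at high nitrogen, and 1173 to 1455 in hni9 and 1205 to 1333 in WT at low nitrogen (−0.92 ± 0.14, limma adjusted p = 0.00669).

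The remaining 4 were −1.09 for AT4G09760, a choline kinase, −1.02 for AT5G55050, a GDSL-type lipase, 1.08 for AT1G80380, the glycerate kinase of photorespiration, and 0.93 for AT1G50060, a protein related to PR-1 (limma adjusted p = 0.0312, 0.0336, 0.0473 and 0.0138). They were lost in 8, 9, 11 and 1 of the 12 fits without 1 array.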

How the results depend on the processing

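All 160 interactions kept their sign under every alternative run (147 of 147 tested with the dimmest 40% left out). That is a description only, since the same arrays chose the 160 and a change of sign was unlikely from the start. Under the alternatives that change the transformation or the scaling, between 121 (arrays centred) and 152 (1 added) of the 160 still passed. Without the intensity trend 21 passed (15 positive, 6 negative), 20 of them among the 160, and 52.4% had the larger hni9 change at high nitrogen. With replicates 1 and 2 alone 1 passed (1 positive, 0 negative), whose hni9 change was the larger at low nitrogen (0%). With a replicate block 234 passed (152 negative), 157 of them among the 160. Residuals of same-numbered arrays correlated above 0 in all 18 pairs (0.0216 to 0.15) but over 0.1 in only 6, 5 of them between replicate 3 arrays, so the numbers were not taken to pair the arrays. Of the 12 arrays, 11 correlated best on average with their own number, a hint from the data only. Without 1 array, the interaction count ran from 67 to 254, the positive from 28 to 109, the negative from 39 to 180, and the share with the larger change at high nitrogen from 67.6% to 77.2%. The simple changes (hni9 against WT at high and low nitrogen, high against low nitrogen in hni9 and in WT) counted 1744, 469, 1160 and 1305. They counted 929, 156, 647 and 795 without the trend, and 482, 83, 362 and 413 with replicates 1 and 2 alone. Without 1 array they ran from 1048 to 1988, 187 to 616, 734 to 1071 and 779 to 1516. Of 50 genes followed, 24 passed in every alternative except those without the trend, where 41 were lost, and with replicates 1 and 2 alone, where all 50 were; the cause was not tested. Changes of genes near or under 16 units are limited by their signal over background.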
